A study of Homo sapiens with 44 samples.

Results

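Open chromatin was compared between colon fibroblasts given TNF and fibroblasts left unstimulated, in 4 libraries each, chosen as the TNF and unstimulated samples out of the 44 bulk ATAC-seq samples of the series. The cells were Ccd-18Co, one established human colon fibroblast cell line, grown in full medium, then starved of serum before the stimulation and stimulated in serum-free medium. The unstimulated cells went through the same starvation. TNF was used at 10 ng/ml for a day, and the extracts were made directly afterwards. ATAC-seq inserts sequencing adapters into accessible DNA, so the read coverage of a region rises with its accessibility. The series gives the read coverage of 407383 regions (peaks) with 500 bases between start and end, and 407176 of them had enough coverage to be tested. Each peak carries the name of the gene with the nearest start and one of 4 classes: promoter, exon, intron or distal. The gene name of a peak is a label of position only. A change in a peak can be a change in every cell or in a share of the cells, which cannot be told apart in bulk libraries.

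TNF is a cytokine made by macrophages, T cells and other cells in inflamed gut, and it acts on fibroblasts mainly through the receptor TNFRSF1A. The receptor recruits adaptors and ubiquitin ligases (TRADD, RIPK1, TRAF2, BIRC2 and BIRC3), which activate IκB kinase. The kinase releases the NF-κB subunits RELA and NFKB1 from their inhibitor NFKBIA, and NF-κB then induces chemokines, cytokines and its own inhibitors. MAP kinases activated by the same receptor act on AP-1, the family of FOS, JUN and related factors.

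The central 300 bases of the 3 named intronic or distal peaks with the largest gains outside CXCL8 are printed first, since they hold the DNA that opened most outside promoters and exons. Capitals mark matches of 3 motif strings on either strand: an NF-κB (κB) consensus, the AP-1 string TGANTCA and the C/EBP string TTGCNNAA. All letters are the plus strand of the hg38 reference. The ADTRP window is chr6:11825025-11825324, the STX8 window is chr17:9389163-9389462 and the LINC02539 window is chr6:137709977-137710276.
ADTRP: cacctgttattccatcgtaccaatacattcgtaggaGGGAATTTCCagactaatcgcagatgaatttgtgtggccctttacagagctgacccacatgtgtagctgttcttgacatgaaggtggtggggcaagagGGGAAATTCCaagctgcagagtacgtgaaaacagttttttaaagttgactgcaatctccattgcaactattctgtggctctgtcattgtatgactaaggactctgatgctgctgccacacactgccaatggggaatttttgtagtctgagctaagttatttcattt
STX8: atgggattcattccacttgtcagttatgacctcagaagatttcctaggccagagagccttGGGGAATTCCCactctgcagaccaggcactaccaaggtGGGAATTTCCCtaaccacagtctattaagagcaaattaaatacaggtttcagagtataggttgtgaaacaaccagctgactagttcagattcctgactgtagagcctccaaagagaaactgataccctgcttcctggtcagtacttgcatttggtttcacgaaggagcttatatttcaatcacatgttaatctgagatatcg
LINC02539: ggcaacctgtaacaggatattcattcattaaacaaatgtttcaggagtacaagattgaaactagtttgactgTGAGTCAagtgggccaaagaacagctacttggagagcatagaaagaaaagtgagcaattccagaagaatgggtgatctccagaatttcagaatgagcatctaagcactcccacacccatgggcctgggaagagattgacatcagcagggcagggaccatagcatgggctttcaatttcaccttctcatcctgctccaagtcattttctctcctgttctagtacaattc
ADTRP held 2 κB matches, at bases 37 to 46 and 135 to 144 counted from the first base printed. STX8 held 4 matches in overlapping pairs, 1 pair from base 61 to 71 and the other from base 99 to 109. LINC02539 held no κB match and 1 AP-1 match, at bases 73 to 79. The whole STX8 peak also held a C/EBP match outside the window.

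The 3 named intronic or distal peaks with the largest losses are shown in the same way, to set beside the gains. They are LINC01365 at chr4:119835690-119835989, TGFB2-OT1 at chr1:218402249-218402548 and LINC00670 at chr17:12418230-12418529.
LINC01365: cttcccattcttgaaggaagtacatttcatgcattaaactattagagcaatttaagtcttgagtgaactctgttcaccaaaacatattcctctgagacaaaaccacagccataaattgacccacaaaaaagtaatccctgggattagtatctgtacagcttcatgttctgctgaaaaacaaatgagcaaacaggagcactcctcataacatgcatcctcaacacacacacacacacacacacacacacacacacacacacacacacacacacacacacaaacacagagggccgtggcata
TGFB2-OT1: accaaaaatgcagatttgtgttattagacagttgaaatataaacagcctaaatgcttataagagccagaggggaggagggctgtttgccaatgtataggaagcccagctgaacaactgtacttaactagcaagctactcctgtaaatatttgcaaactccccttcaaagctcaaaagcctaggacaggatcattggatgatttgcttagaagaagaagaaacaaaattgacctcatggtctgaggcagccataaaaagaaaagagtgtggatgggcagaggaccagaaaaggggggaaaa
LINC00670: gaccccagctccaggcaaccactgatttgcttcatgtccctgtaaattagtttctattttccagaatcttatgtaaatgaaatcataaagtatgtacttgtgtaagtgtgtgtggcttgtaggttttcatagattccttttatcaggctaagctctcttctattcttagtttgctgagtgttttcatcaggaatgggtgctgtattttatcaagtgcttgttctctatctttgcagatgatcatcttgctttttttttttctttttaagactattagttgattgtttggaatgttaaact
None of the 3 strings occurred in these 3 windows, which says only that these letters are absent there. In the whole LINC01365 peak a C/EBP match lay outside the window.

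TNF raised 10883 peaks and lowered 6891, which were 2.67% and 1.69% of all tested peaks (limma, Benjamini-Hochberg adjusted p under 0.05). The gains were larger than the losses. The median gain was 1.15 on the log2 scale, and 817 raised peaks gained 2 or more. The median loss had a size of 1.01, and 57 lowered peaks lost 2 or more. No lowered peak lost 3 or more, while 81 raised peaks gained at least that. Levels are given as coverage per Mb, the bases of read coverage in a peak per megabase of coverage in all peaks of the library, and a log2 change is taken on log2(coverage per Mb + 0.5), which understates the change of low peaks. A call that asked for an adjusted p under 0.01 and a log2 change of at least 0.5 left 6862 raised and 3818 lowered peaks.

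**Figure D1:**
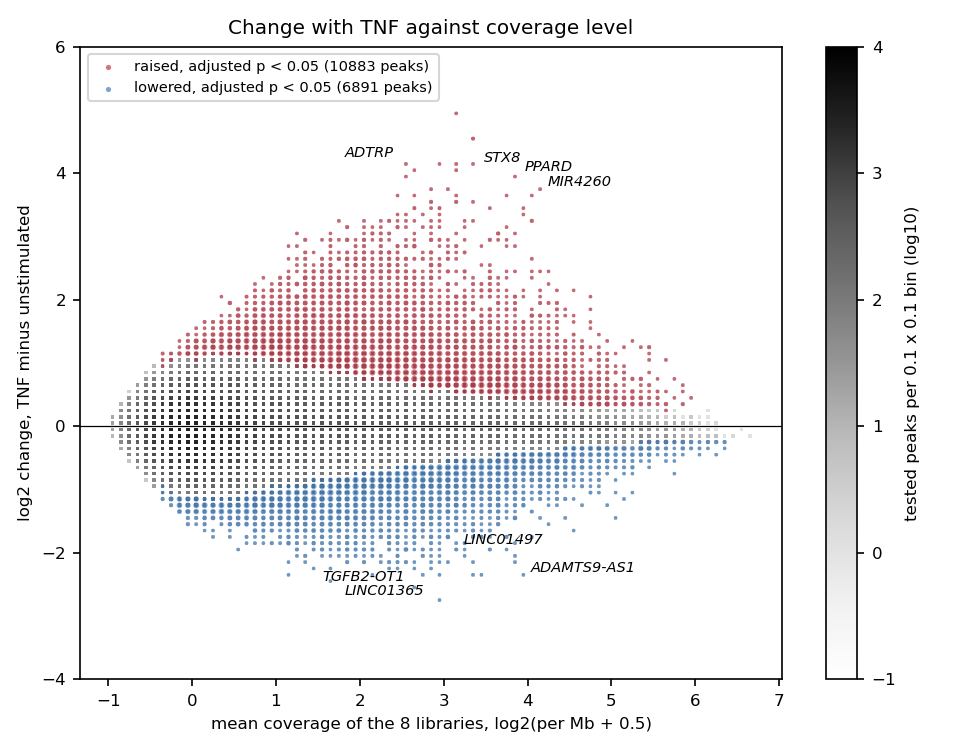
The log2 change with TNF (vertical axis) is plotted against the mean coverage of the 8 libraries (horizontal axis, log2 of coverage per Mb + 0.5), with all tested peaks in grey bins, the 10883 raised peaks in red and the 6891 lowered peaks in blue. The raised peaks reach 4.96 (CXCL8) and the lowered peaks -2.73 (LINC01365).

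The 8 libraries held 328.6 to 726.6 Mb of peak coverage. Depth averaged 414 ± 81.6 Mb (SD, n = 4) in the unstimulated and 468 ± 173 Mb in the TNF libraries (exact two-sided permutation test, adjusted p = 0.714). Peaks without any coverage made up 7.52% ± 3.03 and 8.22% ± 3.26 of all peaks (adjusted p = 0.714). A floor of 3 reads corresponded to 0.31 to 0.683 coverage per Mb, and values below it are within counting error of 0. The floors, and the smallest folds taken from them, cover counting error only. The limma p-values and SEs use the spread between libraries of a group, estimated jointly over the 11 groups of 4 libraries. The labels do not say whether the 4 libraries of a group came from separate cultures, so the spread in all tests may be technical. Among fibroblast genes, the promoter-class peaks of COL1A1 (24.1), COL6A3 (15.8), PDGFRB (16.1), COL1A2 (13.4) and COL3A1 (8.97 coverage per Mb, unstimulated mean) lay above the median of 6.04 over 16764 genes, and those of VIM (2.12), LUM (0.909) and S100A4 (0.825) lay below it. The 5 endothelial markers ranged from 0.542 to 1.9, and the 2 of 6 epithelial and 3 of 6 leukocyte markers with a tested promoter-class peak from 0.856 to 4.57. Among smooth muscle markers LMOD1 (36.7) was above every fibroblast marker and MYH11 (7.09) above the median of 6.04. The smooth muscle markers DES (0.66) and SYNPO2 (0.948) lay below that median, as did the glial and neuronal markers S100B (0.712) and ELAVL4 (0.586). No marker promoter of these cell types, of glia and neurons or of smooth muscle was called in either direction with TNF.

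The share called was highest among distal and intronic peaks and lowest among promoter peaks, an order that was not tested. Of the 140388 tested distal peaks 2.94% rose and 1.74% fell, and of the 210348 intronic peaks 2.72% rose and 1.74% fell. Among the 27335 exonic peaks 1.9% rose and 1.58% fell, and among the 29105 promoter peaks 1.76% rose and 1.25% fell. The median gain of raised promoter peaks was 0.91, against 1.17 for raised distal peaks. Lowered promoter peaks had a median of -0.66, against -1.04 for lowered distal peaks. With classes taken from GENCODE starts, which place 18.9% of the tested peaks at promoters in place of 7.15%, 1639 promoter peaks rose (2.13%) and 1134 fell (1.47%), against 513 and 363 by the class in the row name. GENCODE exonic peaks rose at 2.11%, so promoters did not have the lowest raised share under that annotation.

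The share of coverage held by each class also moved. Promoter peaks held 20.32% ± 0.22 of the coverage in unstimulated and 19.62% ± 0.27 in TNF libraries (SD, n = 4). Their shares were 20.43, 20.36, 20.49 and 19.99% in the unstimulated libraries and 19.51, 19.30, 19.80 and 19.88% in the TNF libraries, and the groups did not overlap. Distal peaks went from 26.73 ± 0.22 to 27.29 ± 0.20%, intronic peaks from 43.82 ± 0.09 to 44.16 ± 0.17% and exonic peaks from 9.13 ± 0.05 to 8.93 ± 0.10%. In each class the exact two-sided permutation test gave p = 0.0286, the smallest value that 4 against 4 libraries allow, and 0.0286 after adjustment over the 4 classes. The 4 shares add up to the whole and are not independent.

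Raised and lowered peaks were close to all tested peaks in GC content and lay somewhat farther from starts. The median distance of raised peaks to the nearest GENCODE transcript start was 8160 bases, against 7742 for lowered and 6857 for all tested peaks. The mean GC content was 45.4% in raised, 45.7% in lowered and 46.7% in all tested peaks. A correction of every library for GC content left 10834 raised and 6941 lowered peaks.

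Some gains started from regions with next to no coverage. A total of 360 raised peaks (3.31% of those raised) held at most 3 reads in every unstimulated library, as did 8.95% of all tested peaks. At 249 lowered peaks (3.61%) every TNF library held at most 3 reads, as did 9.28% of all tested peaks. These counts followed the floor, with 50 and 78 peaks at a floor of 1 read and 973 and 484 at 5 reads.

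The strongest gains outside CXCL8 were found by taking, in each class, the 3 raised peaks with the largest change. Only peaks without overlap between the groups and with a TNF mean of at least 1 per Mb were eligible, at most 1 a gene. Among intronic peaks the largest lay at chr17:9389062-9389562 in an intron of STX8, which encodes a SNARE protein of endosomal membrane fusion. Its coverage was 0.846, 0, 0.619 and 1.63 per Mb in the unstimulated libraries and 16.6, 21.4, 19.3 and 18.9 in the TNF libraries. Every TNF library was above every unstimulated one, which the choice required, and the log2 change was 4.11 ± 0.32 (SE, adjusted p = 3.72e-26). This is the peak whose sequence carries the overlapping κB matches.

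The next intronic peak lay at chr6:35368049-35368549 in PPARD, the gene of a fatty-acid-sensing nuclear receptor. It held 1.38, 1.22, 1.08 and 1.24 per Mb without stimulation and 25, 34.4, 27.2 and 21.5 with TNF. The unstimulated values lay within a narrow band just above the floor, and the log2 change was 3.97 ± 0.33 (adjusted p = 4.35e-23). A peak named for MIR4260 lay within CAMK1G, at chr1:209607303-209607803, and 241 bases from a GENCODE transcript start. Its values were 1.3, 3.13, 1.68 and 2.04 against 30.6, 32.6, 33.8 and 32.3, a change of 3.74 ± 0.27 (adjusted p = 5.53e-29). The TNF libraries agreed closely there and reached the highest level of the 12 raised peaks.

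Of the distal peaks, that named for ADTRP, at chr6:11824924-11825424 and 18128 bases from the ADTRP start, changed most. ADTRP encodes a membrane hydrolase of fatty acid esters of hydroxy fatty acids. The unstimulated libraries held 0.889, 0, 0 and 0.655 per Mb and the TNF libraries 12.6, 14.8, 13.6 and 15.6, a change of 4.20 ± 0.35 (adjusted p = 5.79e-23). The region was near the floor without stimulation and open in all 4 TNF libraries. The LINC02539 peak (chr6:137709876-137710376) lay 157088 bases from the nearest protein-coding start, that of TNFAIP3, within the noncoding gene LINC03004. It rose from 0.397, 0.797, 0.455 and 0.655 to 16.9, 15.8, 14.4 and 19.6, a change of 4.00 ± 0.32 (adjusted p = 3.41e-25). The distal peak named for RIPK2, a kinase that couples NOD receptors to NF-κB, lay 68308 bases from its start. The peak lay 479 bases from a GENCODE transcript start. It rose from 0, 0.877, 0.279 and 1.19 to 11.7, 15.3, 11.7 and 12, a change of 3.74 ± 0.35 (adjusted p = 1.3e-18), and the whole peak had none of the 8 motif strings searched.

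Among promoter peaks WWC1, AKR1B1 and VPS4A led. WWC1 encodes KIBRA, a scaffold of the Hippo pathway, and its peak lay 1573 bases from the start, at chr5:168289822-168290322. It rose from 0.719, 0.943, 0 and 0.974 to 10.4, 15.8, 12.4 and 11.6, a change of 3.60 ± 0.38 (adjusted p = 1.16e-15). The AKR1B1 peak, 876 bases from the start of this aldose reductase gene, rose from 0.762, 1.03, 0.358 and 1.69 to 14.5, 14, 12 and 14 (3.35 ± 0.33, adjusted p = 3.55e-17). The VPS4A peak, which lies within SNTB2, rose from 2.23, 0, 0.881 and 0 to 7.73, 10.7, 6.33 and 6.77 (3.06 ± 0.38, adjusted p = 2.56e-11). In the row names these are promoters, but they lay 670 to 1573 bases from the nearest protein-coding start and had next to no coverage without TNF.

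The exonic gains stood in exons of genes other than the one named. The LINC01589 peak at chr22:45600735-45601235 lies in FBLN1, the gene of the matrix protein fibulin-1, and rose from 0.644, 0.756, 0.537 and 0 to 15.5, 15.8, 16.1 and 15.4 (4.12 ± 0.36, adjusted p = 2.35e-21). The ACTR8 peak at chr3:53885191-53885691 lies in SELENOK and rose from 0, 0.569, 0 and 0.422 to 12, 6.43, 12.5 and 11.5 (3.93 ± 0.39, adjusted p = 4.75e-17). All 4 unstimulated libraries of the ACTR8 peak were at or under the floor of 3 reads per library, so that its TNF mean of 10.6 was at least 19.1-fold higher. The WDR66 peak lies in PSMD9 and rose from 0.228 to 0.609 per Mb without TNF to 8.44 to 12.7 with TNF (3.65 ± 0.38, adjusted p = 6.12e-16).

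**Figure D2:**
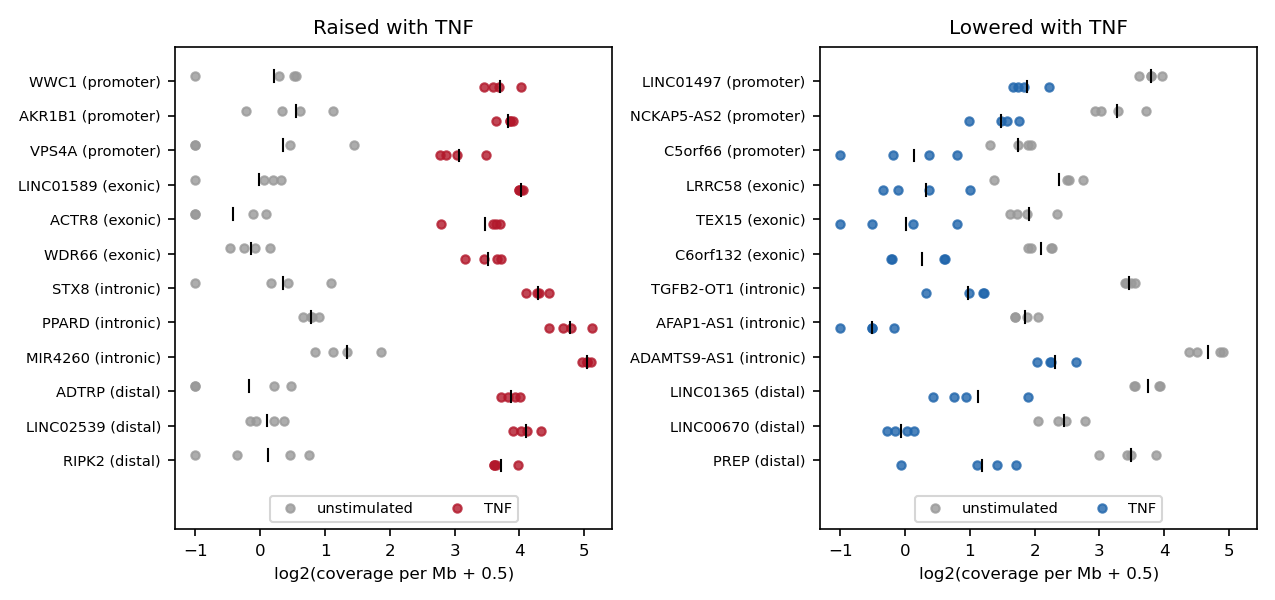
Coverage of the 12 raised (left) and 12 lowered (right) peaks with the largest change in their class is plotted for each library as log2 of coverage per Mb + 0.5 on the horizontal axis, with unstimulated libraries in grey, TNF libraries in red or blue and a black tick at each mean. The groups do not overlap at any of the 24 peaks, which the choice of these peaks required.

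The losses were smaller and began from open regions. At the distal LINC01365 peak (chr4:119835589-119836089), 207035 bases from the nearest protein-coding start, coverage fell from 11.1, 14.8, 14.6 and 11.2 to 0.845, 3.23, 1.19 and 1.43, a change of -2.73 ± 0.21 (adjusted p = 3.37e-26). The TGFB2-OT1 peak (chr1:218402148-218402648) lies in an intron of TGFB2, which encodes a TGF-β ligand. Its coverage fell from 11.2, 9.98, 10.1 and 10.7 to 0.756, 1.49, 1.8 and 1.82 (-2.52 ± 0.22, adjusted p = 5.88e-22). All 4 TNF libraries kept some coverage at both peaks, each above its floor of 3 reads.

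The LINC00670 peak (chr17:12418129-12418629) lay 247511 bases from MYOCD, the gene of the smooth muscle coactivator myocardin, its nearest protein-coding start. Its coverage fell from 6.39, 3.67, 5.12 and 4.62 to 0.326, 0.402, 0.518 and 0.604 (-2.49 ± 0.28, adjusted p = 7.04e-14). The PREP peak (chr6:105551532-105552032), named for a gene of prolyl endopeptidase that starts 97720 bases away, fell from 10.3, 14.2, 10.7 and 7.5 to 1.66, 0.459, 2.77 and 2.19 (-2.40 ± 0.23, adjusted p = 1.95e-18). In AFAP1, the gene of an actin filament-associated protein, an intronic peak named for AFAP1-AS1 fell from 3.67, 2.75, 3.19 and 2.76 to 0, 0.204, 0.392 and 0.205. All 4 TNF libraries were at or under the floor per library, so the unstimulated mean of 3.1 was at least 5.91-fold higher than with TNF (-2.38 ± 0.30, adjusted p = 2.57e-11).

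The most accessible of the 12 lowered peaks lay in an intron of ADAMTS9, the gene of a secreted metalloprotease, at chr3:64548185-64548685 and was named for ADAMTS9-AS1. It fell from 20.3, 28.5, 29.4 and 22.3 to 4.28, 4.24, 5.71 and 3.59 (-2.37 ± 0.15, adjusted p = 2.14e-36). Exonic losses were named for LRRC58 (within FSTL1, the gene of follistatin-like 1, -2.05 ± 0.31, adjusted p = 6.16e-08), TEX15 (-2.04 ± 0.35, adjusted p = 2.31e-06) and C6orf132 (-1.89 ± 0.30, adjusted p = 2.03e-07). Promoter-class losses were named for LINC01497 (-1.93 ± 0.21, adjusted p = 6.6e-15), NCKAP5-AS2 (-1.79 ± 0.22, adjusted p = 3.7e-12) and C5orf66 (-1.73 ± 0.34, adjusted p = 6.57e-05). The C5orf66 peak lies within PITX1, a homeobox gene of hindlimb development, and went from 2.86, 1.98, 3.34 and 3.21 to 0.378, 1.25, 0 and 0.791.

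Some called peaks formed domains and others stood alone, in shares that depended on the gap allowed between peaks. Raised peaks less than 25 kb apart formed 141 domains of 5 or more peaks, which held 8.98% of the raised peaks, and 51.4% of the raised peaks stood alone. Lowered peaks formed 38 such domains with 4.16% of the lowered peaks, and 58.7% stood alone. At a gap of 50 kb 37.5% of the raised and 47.3% of the lowered peaks stood alone, and at 10 kb 67.4% and 71.4%. Whether this clustering exceeds that of all tested peaks was not tested. The largest raised domain lay at chr6:137811355-137895438 over 84.1 kb and held 27 raised and no lowered peaks among 66 tested. Its peaks were named for TNFAIP3, whose product A20 is a ubiquitin-editing inhibitor of NF-κB, and for the neighbouring LOC100130476. Summed over the 66 peaks, coverage was 79.9, 75.8, 76.5 and 94.1 per Mb in the unstimulated and 193, 185, 194 and 199 in the TNF libraries. The TNF sum was 2.36 times the unstimulated one.

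The second raised domain held the CXCL8 peaks and 4 peaks named for RASSF6. It ran over 116.5 kb of chromosome 4 with 24 of 52 tested peaks raised, and its summed coverage went from 92.4 ± 5.28 to 319 ± 16 per Mb (SD, n = 4). The third, at chr6:159655578-159716636, had 16 raised and 2 lowered of 65 tested peaks. Its raised peaks carried the name WTAP, a label of position that does not say which genes lie inside. Summed coverage there was 101, 101, 94.5 and 104 without and 178, 179, 167 and 173 with TNF. At NFKBIA, the gene of the NF-κB inhibitor IκBα, 15 of 50 tested peaks of the fourth domain rose, and the sum went from 129 ± 7.5 to 237 ± 8.61. The fifth, at CCL2, the gene of the monocyte chemoattractant MCP-1, had 15 of 30 peaks raised over 33.6 kb, and its sum went from 78.6 ± 2.79 to 214 ± 7.15.

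In the first and second lowered domains most tested peaks were called (83.3% and 73.1%), and in the other 3 from 16.9% to 38.3%. At THBS1, the gene of the matrix protein thrombospondin-1, 20 of 24 tested peaks within 16.6 kb fell and none rose (chr15:39582326-39598900). The summed coverage was 219, 239, 227 and 187 per Mb in the unstimulated and 123, 139, 130 and 106 in the TNF libraries, and the largest single change was -1.17. At IGFBP5, which encodes a secreted binding protein of insulin-like growth factors, 19 of 26 peaks within 23.2 kb fell (chr2:216669255-216692439), and the sum went from 214, 233, 226 and 239 to 112, 115, 114 and 116. At both domains every TNF library was below every unstimulated library.

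The third lowered domain held 18 lowered of 47 tested peaks, 16 of them named for FOS, the AP-1 subunit, and its sum went from 316 ± 19.5 to 202 ± 11.8 per Mb (SD, n = 4). Around COL1A1, the gene of the main chain of type I collagen, 17 of 58 peaks fell and 1 rose, and the sum went from 600 ± 34.7 to 477 ± 20.9. The fifth domain was named mostly for ATG101, an autophagy gene next to the nuclear receptor gene NR4A1. There 13 of 77 peaks fell and the sum went from 319 ± 14 to 223 ± 24.3. These domains were picked for their called peaks, so the sums describe them and were not tested.

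**Figure D3:**
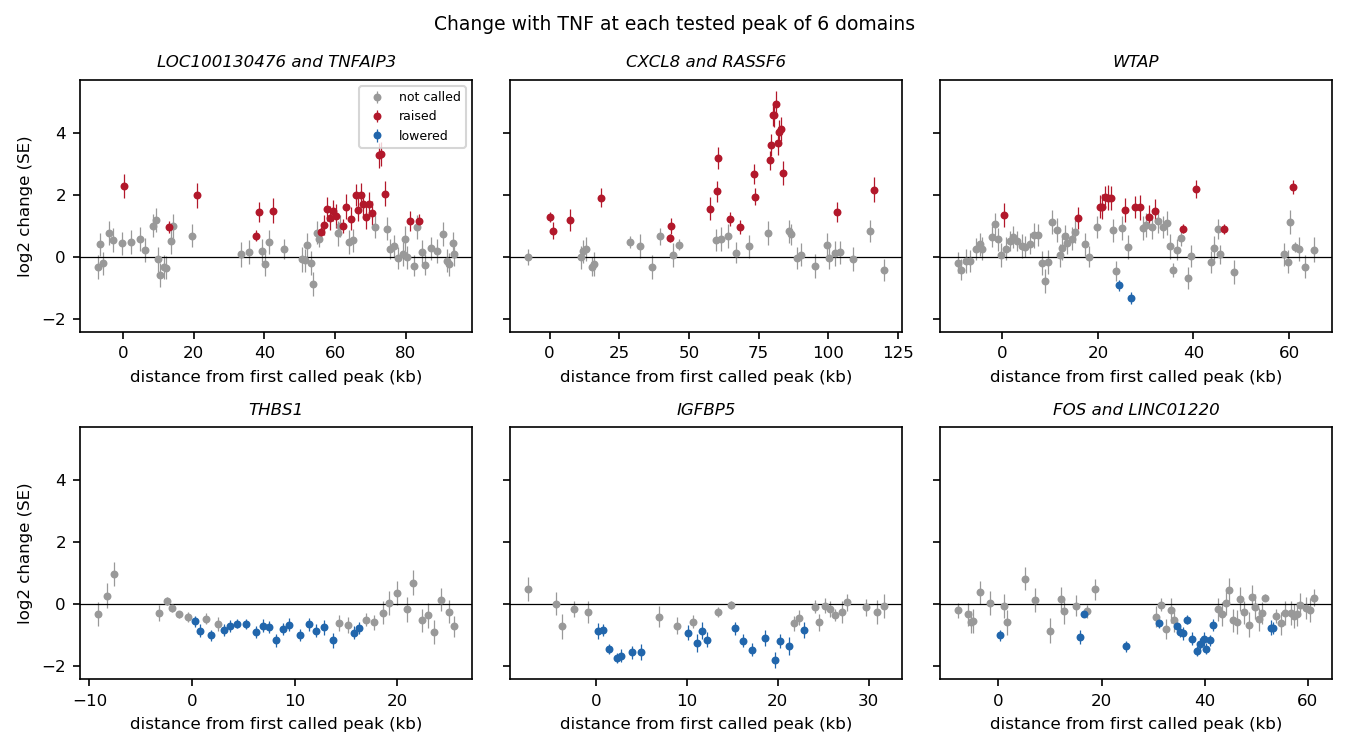
The log2 change with its SE is plotted for each tested peak against its distance in kb from the start of the first called peak, for the 3 domains with the most raised peaks (top) and the 3 with the most lowered peaks (bottom), with 10 kb added on each side. Raised peaks are red, lowered peaks blue and peaks that were not called grey. The CXCL8 domain reaches 4.96 and the IGFBP5 domain -1.79.

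By gene name, 5919 of 23383 names (25.3%) had at least 1 raised peak, 4300 (18.4%) at least 1 lowered peak and 2029 had peaks of both kinds. A total of 560 names had 3 or more raised and no lowered peak, and 193 had 3 or more lowered and no raised peak. LOC100130476 had the most raised peaks, 22 of 68, followed by CXCL8 with 20 of 44. The LOC100130476 peaks (chr6:137867965-137978239) lay beside those named for TNFAIP3 and are not in the TNFAIP3 count of 7 raised of 38. BMPER, which encodes a secreted regulator of BMP signalling, had 18 of 169 raised and 3 lowered, and WTAP 18 of 186 raised and 3 lowered. CCL2, NFKBIA, MIR3923 and MIR6090 had 15 raised peaks each, out of 30, 77, 180 and 195 tested. The most lowered peaks were named for THBS1 (24 of 132, with 2 raised), IGFBP5 (19 of 72, with 1 raised), FOS (16 of 41, with none raised), ZFP36L1 (13 of 309, with 9 raised) and COL1A1 (12 of 29, with 1 raised). ZFP36L1 encodes an RNA-binding protein that promotes decay of AU-rich mRNAs.

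Chemokine genes other than CXCL8 had the highest share of raised peaks among the 15 gene lists examined. Of 362 tested peaks 55 rose (15.2%, against 2.67% of all tested peaks) and 6 fell (1.66%, against 1.69%), and the median log2 change was 0.13, against -0.039 over all tested peaks. Raised peaks were named for 12 of 21 genes and lowered peaks for 3 others, CXCL12, CCL11 and CCL26. The distal CCL2 peak 19698 bases from the start held 0.901, 1.53, 2.82 and 3.29 per Mb without and 28.9, 35.2, 27.9 and 27.1 with TNF (3.62 ± 0.29, adjusted p = 4.36e-25). A distal peak of CCL5, which recruits T cells and monocytes, rose from 0.721, 0.953, 0.452 and 1.26 to 8.14, 11.2, 7.68 and 10.2 (2.89 ± 0.37, adjusted p = 4.8e-11). The promoter of CXCL10, a ligand of CXCR3, rose from 1.23, 1.68, 0.228 and 0.764 to 7.72, 8.83, 12 and 9.19 (2.85 ± 0.32, adjusted p = 3.92e-14). The groups did not overlap at these 3 peaks, which were picked as the largest changes in the list, a choice that favours such separation.

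The neutrophil chemokine genes clustered with CXCL8 on chromosome 4 moved the same way. CXCL1 had 12 of 46 peaks raised, CXCL3 8 of 21, CXCL2 7 of 43, and CXCL5 and CXCL6 1 each. The most covered promoter-class peak of CXCL1 rose from 11.7 to 33.7 per Mb (1.49, adjusted p = 2.09e-16), that of CXCL3 from 12.4 to 22.5 (0.83, adjusted p = 1.36e-05) and that of CXCL6 from 3.84 to 9.86 (1.25, adjusted p = 3.23e-05). The CXCL2 promoter had 15.1 and 20.6 per Mb and was not called (adjusted p = 0.0621). CXCL12, a chemokine made by resting stromal cells, had 4 of 45 peaks lowered and none raised, and its promoter fell from 5.24 to 2.7 (-0.81, adjusted p = 0.0473).

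Among 1035 peaks of 29 cytokine and growth factor genes, 86 rose (8.31%) and 20 fell (1.93%), with a median of 0.102. The distal INHBA peak (chr7:41870406-41870906), 164822 bases from the start of the activin A gene, rose from 0.36, 1.23, 0.899 and 0.238 to 8.72, 8.75, 10.2 and 9.57 (3.13 ± 0.38, adjusted p = 2.96e-12). A distal IL15 peak rose from 0, 0, 1.18 and 0 to 4.12, 7.43, 3.16 and 5.72 (2.99 ± 0.40, adjusted p = 2.98e-10), with a single unstimulated library above 0. The promoter of IL32, a proinflammatory cytokine, held 1.48, 2.8, 1.45 and 3.43 without and 14.4, 13.9, 14.5 and 13.4 with TNF (2.45 ± 0.26, adjusted p = 1.71e-15).

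Several cytokine loci had many called peaks of moderate size. LIF, of the IL-6 family, had 14 of 48 raised and 1 lowered, and its promoter went from 6.83 to 13.9 per Mb (0.97, adjusted p = 5.75e-05). IL33, an alarmin of the IL-1 family, had 11 of 34 raised and its promoter went from 3.41 to 8.96 (1.31, adjusted p = 4.12e-05). IL1B had 6 of 17 raised. CSF2, which encodes GM-CSF, had 3 of 23 raised, and its promoter went from 0.733 to 2.94 (1.68, adjusted p = 0.00035). IL6 itself had 1 raised of 16 tested peaks, and its most covered promoter peak held 1.61 and 3.3 per Mb (0.83, adjusted p = 0.15). TSLP, IL7, TNFSF10 and TNFSF15 had peaks in both directions.

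Receptors and adaptors of the TNF pathway had 41 of 636 peaks raised (6.45%) and 17 lowered (2.67%). The genes of the ubiquitin ligases BIRC2 and BIRC3, neighbours on chromosome 11, had raised promoter-class peaks. The BIRC3 promoter (chr11:102317111-102317611) rose from 5.5, 6.01, 6.65 and 7.97 to 29.8, 27.9, 27.4 and 26.5 (2.02 ± 0.19, adjusted p = 1.99e-19). A BIRC2 promoter-class peak 1179 bases from the start rose from 1.16, 1.27, 2.6 and 0.704 to 7.62, 6.13, 7.61 and 7.92 (2.10 ± 0.32, adjusted p = 7.37e-08), while its most covered promoter-class peak held 17.6 and 18.8 per Mb and was not called (0.09, adjusted p = 0.872). CFLAR, which encodes the caspase-8 inhibitor c-FLIP, had 9 of 30 peaks raised. TNFRSF1A, the receptor gene, had 2 raised and 2 lowered of 28, and its promoter held 10.4 and 9.87 per Mb (-0.06, adjusted p = 0.94).

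The NF-κB subunit genes had 18 of 156 peaks raised (11.5%) and none lowered, with a median of 0.219. NFKB2 had 9 of 43 raised, NFKB1 7 of 62 and RELB 2 of 33, and none was called for the other two genes, REL and RELA. The largest NFKB1 change was intronic, from 0.293, 0, 0.225 and 0.579 to 3.96, 2.66, 2.76 and 3.81 (2.33 ± 0.38, adjusted p = 6.15e-07). The largest RELB change was also intronic, from 0, 0.781, 0.446 and 0.0946 to 1.5, 4.29, 5.24 and 3.18 (2.28 ± 0.38, adjusted p = 1.51e-06). Both started within or near the floor.

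Inhibitors and feedback genes of NF-κB had 52 of 475 peaks raised (10.9%) and 4 lowered (0.842%), and 13 of 16 genes had at least 1 raised peak. A distal NFKBIA peak (chr14:35375542-35376042) 28957 bases from the start rose from 1.36, 0.569, 0.228 and 1.22 to 16.7, 11.3, 16.6 and 10.6 (3.48 ± 0.34, adjusted p = 1.58e-17). An intronic peak of NFKBIE, the gene of IκBε, rose from 1.12, 0.941, 1.49 and 0.829 to 8.66, 11.4, 9.69 and 7.09 (2.61 ± 0.34, adjusted p = 2.55e-10). TNIP1, whose product binds A20, had 10 of 48 peaks raised and NFKBIZ 6 of 59 with 1 lowered. Promoter gains were smaller than the largest gains of the same genes, 0.82 at NFKBIA (adjusted p = 2.42e-05), 0.81 at TNFAIP3 (adjusted p = 8.99e-05), 0.67 at TNIP1 (adjusted p = 0.00015) and 0.95 at NFKBIZ (adjusted p = 2.39e-05). Each largest gain was picked over all peaks of its gene, which favours this order.

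Genes of AP-1 and C/EBP factors were the list with the highest share of lowered peaks. Of 352 peaks 26 fell (7.39%) and 9 rose (2.56%), with a median of -0.137. FOS held 16 of the 26 and CEBPD, the gene of C/EBPδ, 8. The exonic FOS peak (chr14:75280706-75281206) fell from 19.1, 13.2, 14.7 and 12.7 to 5.31, 5.82, 3.56 and 4.83 (-1.52 ± 0.17, adjusted p = 1.6e-13). An intronic peak named for CEBPD, within SPIDR and 3512 bases from the CEBPD start, fell from 10.4, 8.12, 10 and 11.7 to 1.71, 1.17, 2.65 and 2.09 (-2.16 ± 0.21, adjusted p = 3.68e-18). The FOSL2 promoter fell from 25.5 to 12.8 (-0.97, adjusted p = 1.66e-10). FOSL1, which encodes the FOS-related factor FRA1, went the other way with 5 of 9 peaks raised, and its largest change was from 2.78, 0.761, 2.13 and 1.79 to 5.77, 4.86, 5.84 and 5.24 (1.40 ± 0.28, adjusted p = 0.000104).

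Interferon response genes had shares close to all tested peaks, with 14 of 499 raised (2.81%) and 6 lowered (1.2%). Single peaks changed by more. A peak in IRF1, the gene of an interferon-regulated transcription factor, rose from 3.11, 5.1, 3.35 and 4.42 to 21.2, 23.9, 20.4 and 21 (2.32 ± 0.22, adjusted p = 5.81e-18). A peak in NLRC5, a transactivator of MHC class I genes, rose from 0.5, 0.19, 0.452 and 0.56 to 4.24, 3.77, 3.89 and 4.11 (2.30 ± 0.39, adjusted p = 1.77e-06), and one in IFIT3 by 2.09 ± 0.35 (adjusted p = 1.09e-06). A total of 20 of the 30 genes had no called peak, a share close to that of all gene names (15193 of 23383).

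Leukocyte adhesion and receptor genes had 21 of 586 peaks raised (3.58%) and 17 lowered (2.9%). ICAM1, the ligand of leukocyte integrins, had 4 of 18 raised, the largest 5554 bases from its start with 0.846, 0.877, 1.13 and 1.42 without and 8.75, 7.06, 8.06 and 8.57 with TNF (2.47 ± 0.32, adjusted p = 2.12e-10). VCAM1 had 1 raised and 1 lowered of 47. The gene of the "don't eat me" signal CD47 had a distal peak that rose from 0.731, 0.377, 1.13 and 0.142 to 7.46, 9.88, 8.81 and 7.22 (3.09 ± 0.38, adjusted p = 1.01e-11). IL1R1, the receptor gene of IL-1, had 3 raised and 7 lowered of 74.

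Matrix proteases and inhibitors had 39 of 727 peaks raised (5.36%) and 14 lowered (1.93%). The metalloproteinase cluster of chromosome 11 had raised peaks named for MMP13 (4 of 20), MMP10 (3 of 12), MMP3 (2 of 11), MMP12 (2 of 9) and MMP1 (1 of 8). The distal peak of MMP12, the macrophage elastase gene, rose from 1.1, 2.61, 0.704 and 1.69 to 16.1, 21.1, 17.9 and 17.1 (3.28 ± 0.31, adjusted p = 1.4e-18). That of MMP13, a collagenase gene, rose from 0.896, 0.65, 0.228 and 0.653 to 11.7, 7.25, 10.4 and 7.56 (3.15 ± 0.36, adjusted p = 1.75e-13). The MMP9 promoter rose from 0.956 to 4.98 (2.00, adjusted p = 5.18e-05). ADAMTS9 had 5 raised and 5 lowered of 154 peaks.

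Prostaglandin and redox enzyme genes had 22 of 539 peaks raised (4.08%) and 12 lowered (2.23%). The receptor genes PTGER4 and PTGER2 differed in their largest changes. A distal peak of PTGER4 (EP4), 273719 bases from its start, rose from 0.411, 0.0531, 0.829 and 0.706 to 5.59, 7.54, 4.14 and 6.74 (2.75 ± 0.40, adjusted p = 1.22e-08). An intronic peak of PTGER2 (EP2) fell from 6.01, 5.6, 5.74 and 4.39 to 0.381, 1.43, 1.09 and 1.19 (-2.01 ± 0.27, adjusted p = 3.42e-10). PTGS2, the COX-2 gene, had 2 of 24 peaks raised and a promoter at 20.3 and 20.9 per Mb (0.02, adjusted p = 0.971).

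**Figure D4:**
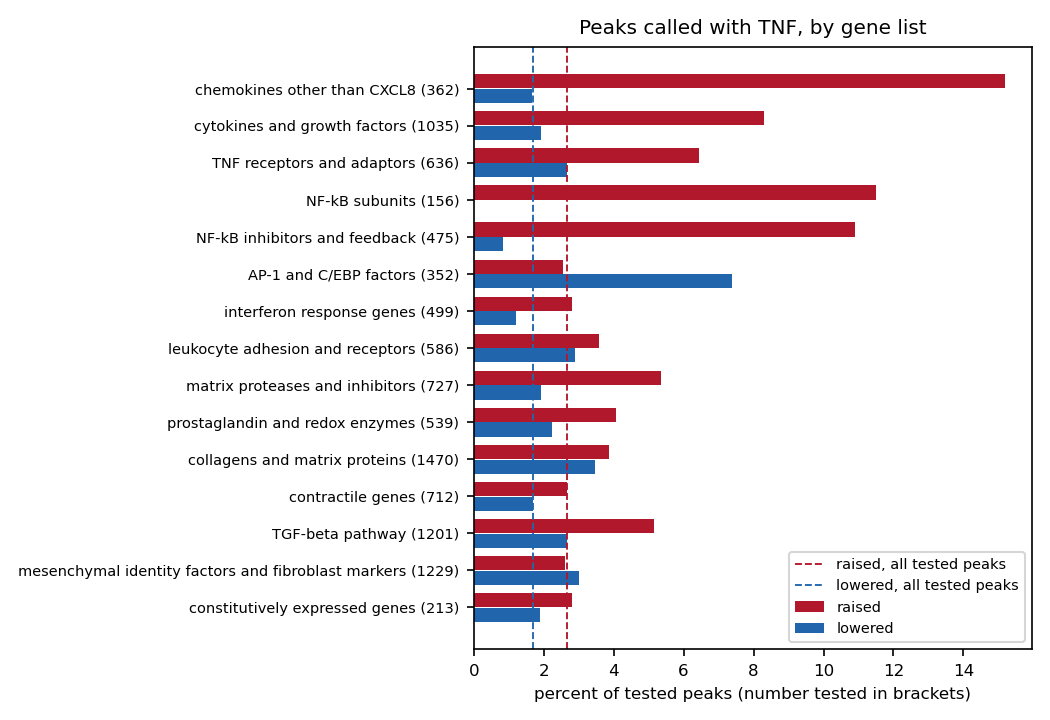
The percentage of tested peaks raised (red) and lowered (blue) with TNF is plotted for the 15 gene lists, with the number of tested peaks in brackets and dashed lines at the 2.67% raised and 1.69% lowered of all tested peaks. Chemokines (15.2%) and NF-κB subunits (11.5%) had the highest raised shares, and AP-1 and C/EBP factors (7.39%) the highest lowered share.

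Collagen and matrix genes had called peaks in both directions, 57 raised (3.88%) and 51 lowered (3.47%) of 1470. COL1A1 was lowered at 12 of 29 peaks, while its promoter held 24.1 and 21.3 per Mb and was not called (-0.19, adjusted p = 0.531). COL14A1 had 6 of 62 lowered and FBLN1 6 of 57, with 1 raised at FBLN1. A COL14A1 intronic peak fell from 6.93, 7.85, 7.05 and 4.02 to 1.35, 0.402, 1.05 and 2.27 (-2.05 ± 0.26, adjusted p = 4.54e-11). TNC, the gene of tenascin-C, had 10 of 72 raised and none lowered. COL7A1, the anchoring fibril collagen gene, had 4 of 10 raised, and its promoter rose from 30.2 to 51.7 (0.76, adjusted p = 3.21e-09). A distal peak named for DCN rose from 0.18, 0, 0.462 and 0.282 to 5.79, 6.93, 5.39 and 5.1 (3.14 ± 0.39, adjusted p = 2.26e-11), and it started at or under the floor in every library, which makes the TNF mean of 5.8 at least 10.5-fold higher.

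Contractile genes had the shares of all tested peaks, with 19 of 712 raised (2.67%) and 12 lowered (1.69%). The promoter of CALD1, the caldesmon gene, fell from 17.9 to 6.93 per Mb (-1.30, adjusted p = 4.83e-12). Promoters of ACTA2 (9.69 and 7.75) and TPM1 (24.7 and 24) were not called. An intronic MYLK peak, in the gene of myosin light chain kinase, rose from 0, 0.703, 0.674 and 0.778 to 4.04, 2.08, 2.7 and 4.2 (1.90 ± 0.40, adjusted p = 0.000197). TGF-β pathway genes had 62 of 1201 peaks raised (5.16%) and 32 lowered (2.66%). SMAD3, a signal transducer of TGF-β receptors, had 13 of 139 raised and 4 lowered, and SMAD7, the inhibitory SMAD gene, 7 of 124 raised and none lowered. A distal TGFBR2 peak rose from 3.68, 6.09, 4.5 and 7.31 to 20.3, 19.6, 22.9 and 18.1 (1.85 ± 0.21, adjusted p = 7.79e-14).

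Mesenchymal identity factors and fibroblast markers had 32 of 1229 peaks raised (2.6%) and 37 lowered (3.01%). Raised peaks were named for 12 of the 26 genes and lowered peaks for 14, with both kinds at 8. PRRX1 had 6 of 46 peaks raised and none lowered, and NR2F1 had 6 raised and 4 lowered of 146. FOXF1 and FOXL1, forkhead factors of gut mesenchyme, had 4 of 20 and 5 of 34 peaks lowered and none raised. The FOXL1 promoter fell from 9.24 to 5.39 (-0.72, adjusted p = 0.0189), and that of FOXF1 held 20.8 and 22.1 (0.08, adjusted p = 0.867). GLI3 had 3 of 124 peaks lowered and none raised. Its largest loss, at an intronic peak, was from 3.44, 3.81, 2.47 and 2.45 to 0, 0.386, 0.194 and 0.816 (-2.13 ± 0.35, adjusted p = 6.03e-07). A peak named for ETV4, an ETS factor, rose from 1.77, 0.743, 0.228 and 1.29 to 13.9, 14.5, 16.1 and 16.4 (3.50 ± 0.34, adjusted p = 2.61e-18). This peak lies 28974 bases from the ETV4 start, within DHX8 and 871 bases from a GENCODE transcript start. Constitutively expressed genes had 6 of 213 peaks raised (2.82%) and 4 lowered (1.88%), and their largest calls were -0.68 ± 0.13 at ACTB (adjusted p = 2.97e-05), 1.23 ± 0.39 at YWHAZ (adjusted p = 0.0425) and 1.13 ± 0.33 at HPRT1 (adjusted p = 0.0223). The groups overlapped at the YWHAZ and HPRT1 peaks, and both calls were lost under several alternatives given at the end.

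Motif strings were searched over the whole length of every peak, and their shares differed between raised and lowered peaks. The κB consensus occurred in 26.4% of the raised, 3.98% of the lowered and 8.5% of all tested peaks. It occurred in 64.7% of the 817 raised peaks with a log2 change of 2 or more. The AP-1 string TGANTCA occurred in 54.4% of the raised, 20.8% of the lowered and 25.7% of all tested peaks, and in 39.3% of the 817. The κB share was thus highest among the largest gains, and the AP-1 share was higher among all raised peaks than among the largest. Of the tested peaks that held both strings 15.9% rose, of those with κB alone 6.23%, of those with AP-1 alone 4.87% and of those with neither 1.19%. Among promoter-class peaks κB matches were found in 33.9% of the raised, 9.09% of the lowered and 11.2% of the tested.

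Other strings differed by fewer percentage points between raised and lowered peaks. The C/EBP string TTGCNNAA was found in 34.7% of the lowered, 26.7% of the raised and 25.8% of all tested peaks. The TEAD string ACATTCC was found in 12.6% of the lowered and 11% of the raised peaks, against 8.65% of all tested. The RUNX string TGTGGTT was found in 15.4% of the raised and 12.6% of the lowered, against 10.9%. The interferon-stimulated response element string GAAANNGAA was found in 18.1%, 17.7% and 18.7% of raised, lowered and all tested peaks, and the SRF consensus in 3.95%, 4.35% and 3.21%. The consensus of CTCF, a factor of chromatin loop anchors, was found in 0.524% of the raised, 0.406% of the lowered and 1.53% of all tested peaks. Both strands were searched, the strings of NF-κB, CTCF and SRF are given by name because they use ambiguity letters other than N, and matches of different strings can overlap. A match is a description of the letters and not a binding site, and these shares were not tested.

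**Figure D5:**
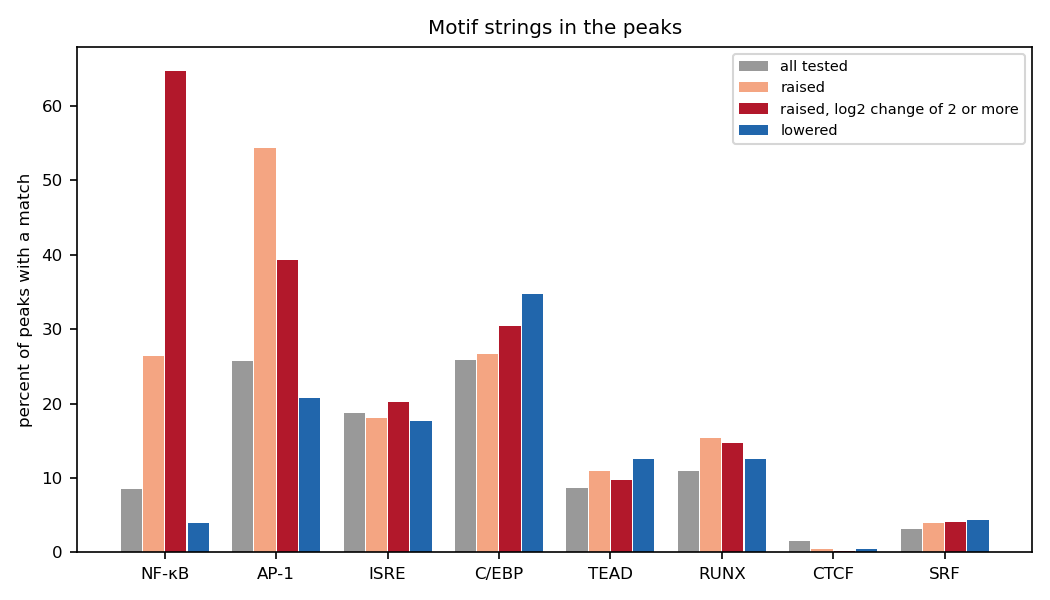
The percentage of peaks with at least 1 match anywhere in the peak is plotted for 8 motif strings (horizontal axis), for all tested peaks, raised peaks, raised peaks with a log2 change of 2 or more, and lowered peaks. The NF-κB bars stand at 8.5, 26.4, 64.7 and 3.98% in that order.

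The direct contrast with IL-1β, a cytokine that activates NF-κB through another receptor, called 5363 peaks, or 1.32% of all tested peaks, 4078 higher with TNF and 1285 lower. The IL-1β dose was 0.1 ng/ml by the study's methods, while a figure legend for the cytokine response signatures gives a lower dose. Either was below that of TNF (10 ng/ml), and cytokine and dose cannot be told apart. The count fell to 3009 without TNF replicate 2 and to 3562 without IL-1β replicate 4. Of the 12 raised peaks named by class, 5 were higher with TNF than with IL-1β, and the IL-1β mean was above the unstimulated mean at all 12. All 12 were picked for the largest gains over the unstimulated libraries, which favours both counts. The adjusted p-values of this contrast do not allow for that choice. The largest difference was at PPARD, with an IL-1β mean of 3.07 ± 0.441 per Mb against 27 ± 5.45 with TNF (2.93 ± 0.33 on the log2 scale, adjusted p = 8.87e-13). The exonic ACTR8 peak (2.10, adjusted p = 9.55e-05), WWC1 (1.46, adjusted p = 0.0161), LINC02539 (1.43, adjusted p = 0.00199) and MIR4260 (1.21, adjusted p = 0.00225) were also higher with TNF. STX8 held 9.86 with IL-1β and 19.1 with TNF, and its difference of 0.92 was not called (adjusted p = 0.153).

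Among chemokine and cytokine peaks, CCL5 (2.31, adjusted p = 1.37e-06), IL32 (1.28, adjusted p = 0.000437), IL15 (1.53, adjusted p = 0.0167), INHBA (1.35, adjusted p = 0.0335) and CXCL10 (1.12, adjusted p = 0.0377) were higher with TNF than with IL-1β. The CCL2 distal peak was not called, with 16.8 against 29.8 per Mb (0.81, adjusted p = 0.178). These peaks and those that follow were also picked for large changes with TNF, which favours such differences. NLRC5 (1.85, adjusted p = 0.000964), PTGER4 (2.02, adjusted p = 0.0003), CD47 (1.84, adjusted p = 0.000699) and BIRC3 (0.70, adjusted p = 0.024) were also higher with TNF. The ETV4 peak held 17.8 per Mb with IL-1β and 15.2 with TNF (-0.21, adjusted p = 0.911). Of the lowered peaks, CEBPD (-1.13, adjusted p = 6.47e-05), FOS (-0.95, adjusted p = 4.69e-05) and AFAP1-AS1 (-1.13, adjusted p = 0.0216) were lower with TNF than with IL-1β, and NCKAP5-AS2 was higher (0.79, adjusted p = 0.0278).

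Across all 11 groups of the series the TNF mean was the highest at each of the 12 raised peaks named by class and the lowest at 9 of the 12 lowered ones. These peaks were picked for the largest changes with TNF, so the choice itself favours such ranks. Leaving IL-1β aside, whose means at the raised peaks were 2.07 (ACTR8) to 13.8 per Mb (MIR4260), the highest mean of the 8 remaining cytokine groups at a raised peak was 5.31 (LINC02539, IFN-γ), against 16.7 with TNF. At the CXCL10 promoter the IFN-α mean of 10.8 was above the TNF mean of 9.45, and at IFIT3 the IFN-α mean was 7.58 against 3.97 with TNF. At 8 of the 12 lowered peaks TGF-β1 gave the lowest mean of these 8 groups, for example 4.71 at TGFB2-OT1, between the unstimulated 10.5 and the TNF 1.47, and the IL-1β mean there was lower still, 2.21. At the FOS and CEBPD peaks oncostatin M gave the highest mean, 28.7 and 17.2 per Mb, above the unstimulated 14.9 and 10.1. These levels in the other groups are a description and were not tested.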

How the data were processed

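Ccd-18Co fibroblasts were profiled by Omni-ATAC in 11 groups of 4 libraries. Per the labels and the study's methods, the authors aligned reads to hg38, called peaks with MACS2 in an ENCODE ATAC-seq pipeline and deposited read coverage (signal), unscaled, for 407383 peaks and 44 libraries in 1 table. Coverage sums bases of overlap, so 1 read adds up to 75, and the total per library reflects depth.

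Coverage was divided by library total and by a composition factor (trimmed mean of log ratios), as coverage per Mb. Peaks with a log2 mean of -3 or less (207) were left out. limma 3.58.1 (R 4.3.3) was fitted to log2(coverage per Mb + 0.5) of all 44 libraries with group as the sole term and a mean-variance trend, and p-values were adjusted by Benjamini-Hochberg over 407176 peaks. Depth and class shares were compared by exact two-sided permutation tests. GENCODE v44 gave starts, exons and genes, and 8 motif strings were searched over whole peaks of the hg38 reference.

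Named peaks were, by class and direction, the 3 called peaks with the largest change, a mean of at least 1 per Mb in the higher group and no overlap between the groups, at most 1 a gene, without CXCL8. For each gene list, the largest called peak of up to 3 genes was named. The 5 genes and 5 domains with the most called peaks were named in each direction. Other gene counts and promoter values come from the lists, and the genes quoted from them were picked after their values were seen. The comparison, members and lists were chosen with earlier results of these data known. Alternatives covered scaling, filter, pseudocount, weights, GC content, the samples fitted, the replicate block and leaving out each library.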

Additional observations from a re-analysis of the deposited data

Results flagged for a closer look

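Each group of 4 libraries was checked for a single library far from the others (Dixon's ratio past its critical value) at the named peaks and for 3 library measures. In all 11 of 142 such checks were past that value, and chance alone passes about 1 in 20, or 7.1.

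TNF replicate 4 was the deepest of its group, with 726.6 Mb of coverage, and had the lowest share of peaks without coverage, 3.369%. Without it 9038 peaks rose and 6095 fell. TNF replicate 3 stood slightly below its group in the share of coverage in the most covered 1% of peaks, 13.67%.

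At 6 peaks a TNF library stood apart. At ACTR8 replicate 2 held 6.43 per Mb, against 11.5 to 12.5 in the other libraries, and the log2 change was 4.15 without it and 3.93 with it. At RIPK2 replicate 2 held 15.3, against 11.7 to 12, and at IL13RA2 it held 3.57, against 4.91 to 5.08. Replicate 3 held 4.06 at NAMPT, against 5.64 to 5.87, 4.87 at TPM1, against 3.27 to 3.44, and 1.3 at YWHAZ, against 2.43 to 2.65. At the IL15 peak unstimulated replicate 3 held 1.18 and the other 3 held 0, and at MYLK unstimulated replicate 1 held 0, against 0.674 to 0.778. Each of these 8 peaks was called with that library left out, with adjusted p-values from 4.51e-16 (ACTR8) to 0.0276 (YWHAZ, chr8). What sets these libraries apart was not tested.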

How the results depend on the processing

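Leaving out 1 library at a time gave 8466 to 9551 raised and 5254 to 6095 lowered peaks, and the contrast of TNF with IL-1β gave 3009 to 4766 differing peaks (lowest without TNF replicate 2; 3562 without IL-1β replicate 4). The rule of an adjusted p under 0.01 and a log2 change of at least 0.5 left 6862 raised and 3818 lowered peaks. Every other setting stayed within 1.5 times of the reported counts, from 8779 (pseudocount 0.1) to 13375 (8 libraries only) raised and from 6372 (pseudocount 0.1) to 8353 (stricter filter) lowered. No peak changed direction among called peaks under any alternative. Leaving out the library labelled IL-6 replicate 4, an alternative chosen after seeing the data, gave 11948 raised and 7765 lowered peaks. Replicate numbers did not pair the libraries: deviations of same-numbered TNF and unstimulated libraries had correlations of -0.001 to 0.006. With the number as a replicate block 10973 peaks rose and 6987 fell, 10919 and 7028 with a GC correction added, and 5476 differed between TNF and IL-1β. Of 68 named peaks 65 kept their call under every alternative that tested them (the stricter filter left out IL15, IL13RA2 and MYLK), and ACTA2 (adjusted p = 0.0968, pseudocount 0.1), YWHAZ (up to 0.368) and HPRT1 (up to 0.131) lost it under at least 1; the cause was not tested. Peaks per class and list stayed within 1.5 times under each scaling and GC correction, and classes from GENCODE moved the promoter counts as given above. Domains of 5 or more peaks numbered 52 raised and 14 lowered at a gap of 10 kb and 309 and 100 at 50 kb. Depth limits the low peaks: a floor of 3 reads was up to 0.683 per Mb, close to the level of many unstimulated values quoted.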
